A study of Mus musculus with 45 samples.

Results

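The 6 genes described here are the 3 Pim kinases (Pim1, Pim2, Pim3) and the 3 cysteine and serine rich nuclear proteins (Csrnp1, Csrnp2, Csrnp3). They were matched by gene symbol to 6 of the 54532 gene rows of the count table. Pim1 and Csrnp1 were chosen by their lower level after TTX plus NMDA in these same libraries, and the other 4 genes are their paralogs. For that reason the values of Pim1 and Csrnp1 in comparisons that contain TTX/NMDA are given as a description with no test, and the tests there are on the 4 paralogs. RNA was sequenced from hippocampal primary neurons of newborn C57BL/6N mice, grown with 1% rat serum, treated with AraC on DIV3 to limit dividing cells and treated on DIV10/11 per the labels, or DIV11 per the methods for the sequencing. Each of 9 conditions held 5 libraries, which came from culture preparations 1, 3, 6, 7 and 8, and single values below are listed in that order. Control cultures were untreated. In the other 8 conditions, bicuculline (Bic, 50 µM), an antagonist of GABA type A receptors that evokes bursts of action potential (AP) firing, was present until harvest. Bic alone was applied for 0.5, 1 or 2 h. The short protocol (SP) added the sodium channel blocker tetrodotoxin (TTX, 1 µM), or TTX and NMDA (30 µM), after 0.5 h of Bic and for a further 0.5 h. The long protocol (LP) added TTX, TTX and NMDA, or the glutamate uptake blocker TBOA (50 µM) after 1 h of Bic and for a further 1 h. TTX against Bic alone of the same total duration addresses the passive effect of ended AP firing, TTX/NMDA against TTX the active effect of NMDA receptor stimulation, and TBOA against Bic the effect of glutamate spillover.

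Pim kinases are serine/threonine kinases that are active as soon as they are translated, so that their amount is set largely by transcription, mRNA stability and protein turnover. Pim1 is a classical target of cytokine signaling through JAK and STAT proteins, and Pim kinases phosphorylate regulators of survival and of the cell cycle such as Bad and Cdkn1a. Csrnp1, also named Axud1, was described as a gene induced by the Wnt pathway scaffold AXIN1. The 3 Csrnp proteins are nuclear factors that bind the sequence AGAGTG.

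Library totals ranged from 11316580 to 81129276 assigned reads with a median of 26239614. Log2 CPM (read counts scaled to the size of the library) correlated at 0.984 or higher between libraries of the same condition. Summed neuronal marker levels (9 genes, among them Map2 and Rbfox3) were 7098 to 9686 CPM. Astrocyte markers summed to 877 to 1917 CPM, oligodendrocyte lineage markers to 99.1 to 309 CPM, fibroblast markers to 57.3 to 205 CPM, microglial markers to 4.43 to 8.76 CPM and endothelial markers to 2.94 to 5.72 CPM. The endothelial marker Cldn5 was at 0 in 27 of 45 libraries, the microglial marker P2ry12 in 6 and the oligodendrocyte lineage marker Sox10 in 5. In such bulk samples, fewer cells of a type and less RNA per cell cannot be told apart.

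All 6 genes are protein coding. On GRCm38, Pim1 lies at chr17:29490753-29496112 on the plus strand and overlaps Gm26885 on the opposite strand. Pim2 lies at chrX:7878262-7883432 and Pim3 at chr15:88862186-88865726, both on the plus strand. Csrnp1 lies at chr9:119971163-119984658 on the minus strand. Its annotation overlaps the microglial gene Cx3cr1 on the same strand, which was at 0.0305 to 0.988 CPM in these libraries, and reads that overlap both genes were not counted. Csrnp2 lies at chr15:100479570-100495488 on the minus strand and Csrnp3 at chr2:65845767-66031546 on the plus strand. Counting used strand, so that antisense neighbours of Pim1, Csrnp1 and Csrnp3 were counted apart from them.

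The promoter windows of Pim1, Pim3 and Csrnp1 are shown because these 3 genes had the largest log2 fold changes of the 6 at 2 h Bic. Their time courses differed, as described below. They are RefSeq sequences of GRCm38.p6, read 5′ to 3′ on the strand of the gene, and cover the bases before a RefSeq start site that lie outside the annotated gene. The windows are chr17:29490535-29490752, chr15:88861944-88862185 and chr9:119984743-119984992. Capitals mark TGACG, the core of the cAMP response element (CRE), and AGAGTG, each on either strand.
Pim1: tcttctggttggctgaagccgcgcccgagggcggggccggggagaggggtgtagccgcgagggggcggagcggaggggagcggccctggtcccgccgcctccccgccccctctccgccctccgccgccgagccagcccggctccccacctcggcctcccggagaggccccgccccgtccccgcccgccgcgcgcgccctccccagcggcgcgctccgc
Pim3: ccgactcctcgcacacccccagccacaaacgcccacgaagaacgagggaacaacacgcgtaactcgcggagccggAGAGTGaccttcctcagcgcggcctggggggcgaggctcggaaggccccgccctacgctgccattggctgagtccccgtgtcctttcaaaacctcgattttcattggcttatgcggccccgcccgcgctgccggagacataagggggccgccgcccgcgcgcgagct
Csrnp1: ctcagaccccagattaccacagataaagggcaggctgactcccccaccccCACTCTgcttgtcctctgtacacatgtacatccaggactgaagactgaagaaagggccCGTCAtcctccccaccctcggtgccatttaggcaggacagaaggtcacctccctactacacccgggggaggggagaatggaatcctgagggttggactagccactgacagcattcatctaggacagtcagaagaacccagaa
Motifs were searched on both strands over the whole stretch upstream of each RefSeq start site, of the same length for every gene, of which bases inside the annotated gene are not printed. The Pim1 windows held none of the motifs, which were the full CRE TGACGTCA and its core TGACG contained in it, the CArG box, TTCNNNGAA (the GAS element bound by STAT proteins), TGANTCA (the AP-1 site) and AGAGTG. The Pim3 window held AGAGTG, which 13.6% of the 32851 mouse promoter windows of the same length hold. TGACG was found in all 4 windows of Csrnp1, one for each of its RefSeq start sites, against 17.8% of all windows. AGAGTG was in 2 of these 4 windows, and TGANTCA was present in a window inside the gene (6.75% of all windows). The full CRE (1.55% of all windows), the CArG box (1.47%) and TTCNNNGAA (7.02%) were not in any window of the 6 genes, and Pim2, Csrnp2 and Csrnp3 held none of the motifs. These matches are descriptions of letters in a window and do not show binding.

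Before stimulation, the 2 genes chosen by their response were the least abundant of their families. On a scale per length (CPM per kb of exon union, mean ± SD, n = 5), the control level was 0.582 ± 0.0947 for Pim1 against 14.9 ± 0.833 for Pim2 and 12.9 ± 1.36 for Pim3. Csrnp1 was at 1.80 ± 0.184 CPM per kb against 13.4 ± 1.18 for Csrnp2 and 12.9 ± 1.67 for Csrnp3. After 2 h Bic the order within the Csrnp family was different, with Csrnp1 at 20.6 ± 1.55, Csrnp3 at 16.4 ± 0.960 and Csrnp2 at 11.7 ± 0.840 CPM per kb. Among the Pim kinases, Pim3 was highest at 39.01 ± 5.06 CPM per kb, Pim2 followed at 20.01 ± 0.791, and Pim1 remained lowest at 8.68 ± 1.37.

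AP firing raised Pim1 late and steeply. The 1 and 2 h Bic libraries also entered comparisons with TTX/NMDA, by which Pim1 and Csrnp1 were chosen, so that the tests of these 2 genes against control and between time points are not independent of that choice. Its control level was 1.57, 2.13, 1.68, 2.32 and 2.08 CPM in the 5 preparations. It was 3.12, 2.47, 2.39, 2.64 and 2.45 CPM after 0.5 h Bic and 3.31, 3.01, 3.02, 4.53 and 6.15 CPM after 1 h Bic. The 0.5 h and control libraries did not overlap, at 18 to 116 reads per library. After 2 h Bic it was at 31.1, 22.2, 27.6, 30.5 and 34.5 CPM, so that the lowest of these libraries stood more than 3 times above the highest of the 1 h libraries. By the quasi-likelihood test of edgeR, adjusted by the Benjamini-Hochberg method over all genes tested, the log2 fold change of Pim1 against control was 0.38 ± 0.19 (SE, adjusted p = 0.844) at 0.5 h, 0.98 ± 0.19 (SE, adjusted p = 0.00122) at 1 h and 3.85 ± 0.13 (SE, adjusted p = 2.05e-22) at 2 h. Pim3 was induced from the first time point. Its level was 29.9, 29.5, 27.4, 33.8 and 35.4 CPM in control and 39.5, 39.1, 38.5, 43.1 and 44.4 CPM after 0.5 h Bic. It reached 68.7, 49.8, 56.2, 62.3 and 89.7 CPM after 1 h and 112, 81.7, 97.2, 83.95 and 98.6 CPM after 2 h. None of the Bic libraries overlapped the control libraries. The log2 fold changes were 0.39 ± 0.09 (SE, adjusted p = 0.0226) at 0.5 h, 1.06 ± 0.11 (SE, adjusted p = 1.35e-09) at 1 h and 1.59 ± 0.09 (SE, adjusted p = 4.65e-16) at 2 h. The call of Pim3 at 0.5 h was lost without preparation 6 (adjusted p = 0.114) or 7 (adjusted p = 0.0680) and with all 45 libraries in 1 fit (adjusted p = 0.174). Pim2, the family member with the least change, had a mean of 41.5 ± 2.33 CPM (SD, n = 5) in control and 55.9 ± 2.21 CPM after 2 h Bic, where its groups did not overlap. Its log2 fold change was 0.42 ± 0.07 (SE, adjusted p = 1.01e-04) at 2 h. At 1 h it was 0.16 ± 0.08 (SE) and was not called (unadjusted p = 0.0442, adjusted p = 0.658). There Pim2 was also higher in 5 of 5 preparations, without overlap of the groups.

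Csrnp1 rose at every time point of Bic, whereas Csrnp3 rose at 2 h and Csrnp2 was not called at any time. Csrnp1 was at 6.18, 5.98, 6.21, 7.30 and 5.57 CPM in control and at 7.12, 11.2, 10.2, 10.2 and 7.87 CPM after 0.5 h Bic. The level was 22.7, 19.3, 20.2, 24.2 and 25.2 CPM after 1 h and 73.7, 70.4, 77.6, 72.99 and 63.05 CPM after 2 h Bic. The 0.5 h library of preparation 1 lay within the control range and the other 4 above it, and each later group stood apart from the one before. The log2 fold changes against control were 0.57 ± 0.13 (SE, adjusted p = 0.0211), 1.81 ± 0.11 (SE, adjusted p = 1.37e-16) and 3.49 ± 0.09 (SE, adjusted p = 3.25e-25) at 0.5, 1 and 2 h. The call at 0.5 h was lost without preparation 3 (adjusted p = 0.172) or 6 (adjusted p = 0.0738) and with filterByExpr (adjusted p = 0.0901). Csrnp3 ranged over 131 to 185 CPM in control and 142 to 176 CPM after 1 h Bic. After 2 h Bic it was at 218, 186, 208, 199 and 201 CPM, above every control library, with a log2 fold change of 0.33 ± 0.08 (SE, adjusted p = 0.00615). Csrnp2 had means of 58.6 ± 5.14 CPM (SD, n = 5) in control and 51.2 ± 3.68 CPM after 2 h, and was lower in 5 of 5 preparations. Its log2 fold change of -0.20 ± 0.08 (SE) did not pass (adjusted p = 0.128), while with preparation as a replicate block, fitted with filterByExpr, it did (adjusted p = 0.0120).

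In all, 2 of the 6 genes were called at 0.5 h, where 0.289% of all genes tested were called, 3 at 1 h (1.16% of all genes) and 5 at 2 h (9.02%). Such shares, here and below, are over all genes with at least 1 read. Among genes kept by the expression filter filterByExpr, as all 6 were, 2865 of 15269 were called at 2 h. From 0.5 to 1 h Bic, 2 of the 6 rose (0.677% of all genes called), Csrnp1 by 1.24 ± 0.11 (SE, adjusted p = 5.61e-15) and Pim3 by 0.67 ± 0.09 (SE, adjusted p = 1.67e-07) on the log2 scale. The log2 fold change of Pim1 in this step was 0.60 ± 0.18 (SE, adjusted p = 0.142), and it was called without preparation 1, 3 or 6 (adjusted p = 0.0303, 0.0494 and 0.0453). From 1 to 2 h Bic, 5 of the 6 rose (5.33% of all genes called). The log2 fold changes in this step were 2.89 ± 0.14 (SE, adjusted p = 1.86e-17) for Pim1, 1.68 ± 0.08 (SE, adjusted p = 6.44e-18) for Csrnp1 and 0.53 ± 0.10 (SE, adjusted p = 3.48e-04) for Pim3. Those of the remaining paralogs were 0.37 ± 0.07 (SE, adjusted p = 1.66e-04) for Csrnp3 and 0.25 ± 0.06 (SE, adjusted p = 0.0110) for Pim2, and the call of Pim2 was lost without preparation 3 or 6 (adjusted p = 0.0587 and 0.0535). Csrnp2 had a log2 fold change of -0.04 ± 0.07 (SE) with a 95% interval of -0.20 to 0.12. On the log2 scale, Pim1 therefore took most of its rise in the second hour of Bic and Pim3 in the first.

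**Figure D1:**
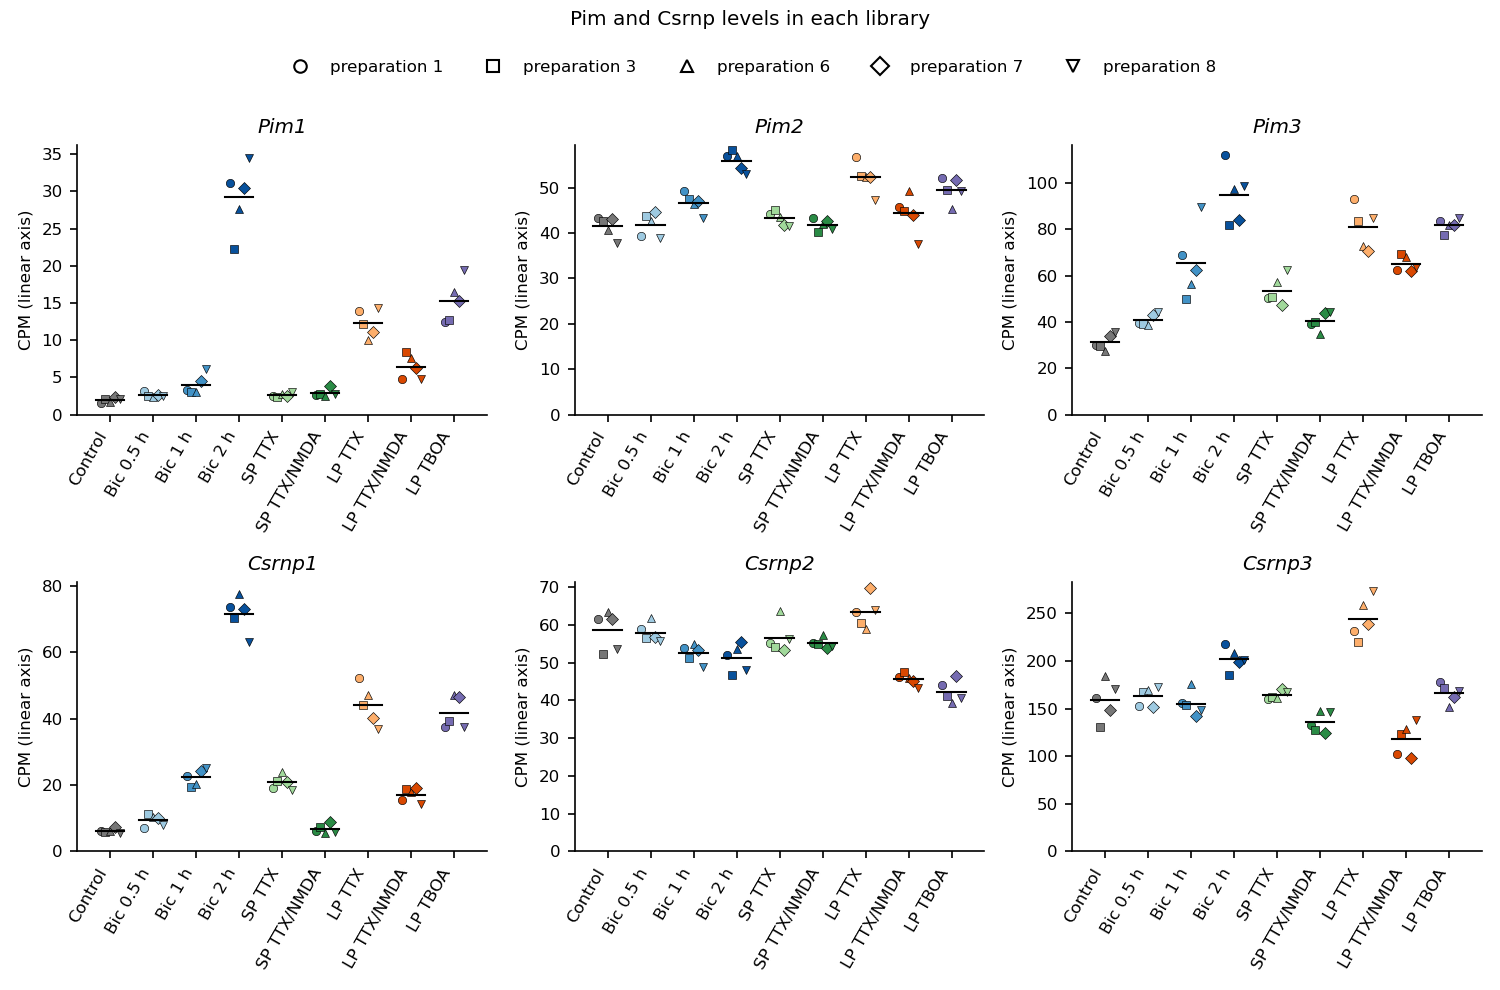
CPM (linear axis from 0) of each gene in each of the 45 libraries, by condition. Each symbol is 1 library, its shape is the culture preparation, and the black line is the mean of 5. Pim1 rises from a mean of 1.96 CPM in control to 29.2 CPM after 2 h Bic and Csrnp1 from 6.25 to 71.5 CPM, while Pim2 and Csrnp2 stay within a narrow band.

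Ending AP firing with TTX lowered Pim1 and Csrnp1 in the LP and raised Csrnp2 and Csrnp3. The TTX and 2 h Bic libraries also entered the comparisons with TTX/NMDA by which Pim1 and Csrnp1 were chosen, so that the values of both genes here are not independent of that choice. In LP TTX, Pim1 was at 13.9, 12.1, 10.04, 11.1 and 14.3 CPM and Csrnp1 at 52.4, 44.02, 47.2, 40.3 and 36.97 CPM, and neither group overlapped its 2 h Bic group. Pim1 changed by -57.2% ± 7.55 (mean ± SD of the change within 5 preparations), with a log2 fold change of -1.25 ± 0.10 (SE, adjusted p = 2.32e-10). Csrnp1 changed by -38.4% ± 5.92 with a log2 fold change of -0.71 ± 0.08 (SE, adjusted p = 1.34e-07). Csrnp2 was at 63.5, 60.4, 59.05, 69.8 and 63.97 CPM after LP TTX against 52.03, 46.7, 53.6, 55.5 and 48.2 CPM after 2 h Bic, higher in 5 of 5 preparations, with a log2 fold change of 0.30 ± 0.07 (SE, adjusted p = 0.00547). Csrnp3 reached 231, 220, 259, 238 and 274 CPM, its highest level in any condition, and its log2 fold change was 0.27 ± 0.06 (SE, adjusted p = 0.0108). In all, 4 of the 6 genes were called, against 4.65% of all genes. Pim2 and Pim3 had log2 fold changes of -0.11 ± 0.06 and -0.23 ± 0.08 (SE) and did not pass (adjusted p = 0.458 and 0.0980). With the replicate block both passed (adjusted p = 0.0462 and 0.00163), as did Pim3 without preparation 3 (adjusted p = 0.0314).

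In the SP, none of the genes was called with TTX against 1 h Bic. These libraries also entered comparisons with TTX/NMDA, so that the same limit holds for Pim1 and Csrnp1, also in the difference between LP and SP below. Pim1 was at 2.55, 2.37, 2.80, 2.47 and 3.03 CPM, lower than after 1 h Bic in 5 of 5 preparations, and Csrnp1 was at 19.2, 21.1, 24.1, 21.04 and 18.5 CPM, higher in 2 and lower in 3. By edgeR, 0 of the 6 genes were called (0.268% of all genes were) and DESeq2 also called 0. An unadjusted p under 0.05 was given to 2 of them by edgeR, Pim1 and Pim3, and to 3 by DESeq2. The log2 fold changes were -0.56 ± 0.17 (SE, adjusted p = 0.355) for Pim1, -0.28 ± 0.10 (SE, adjusted p = 0.761) for Pim3 and -0.10 ± 0.09 (SE, adjusted p = 0.879) for Csrnp1, whose 95% interval was -0.30 to 0.10. Without preparation 3, Pim3 was called (adjusted p = 0.0182). The difference of the TTX effect between LP and SP passed for 1 of the 6 genes, Csrnp1, where 0.256% of all genes were called. Its log2 difference, LP minus SP, was -0.61 ± 0.12 (SE, adjusted p = 0.00563). It was lost without preparation 6 (adjusted p = 0.0821). The same difference for Pim1 was -0.71 ± 0.20 (SE, adjusted p = 0.188), and it passed with the replicate block (adjusted p = 0.0248) and without preparation 8 (adjusted p = 0.00752).

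Against the time point at which TTX was added, several of the genes went on rising while AP firing was blocked. The TTX libraries of both protocols and the 1 h Bic libraries also entered comparisons with TTX/NMDA. The values, tests and ranks of Pim1 and Csrnp1 here are therefore not independent of their choice. From 0.5 h Bic to the end of the SP TTX treatment, Csrnp1 was higher in 5 of 5 preparations by 1.14 ± 0.10 (SE, adjusted p = 1.24e-12) on the log2 scale and Pim3 by 0.38 ± 0.08 (SE, adjusted p = 0.00420). These were the 2 of 6 genes called (0.315% of all genes), and the call of Pim3 was lost with filterByExpr (adjusted p = 0.0632) and with all 45 libraries in 1 fit (adjusted p = 0.127). Pim1 had a log2 fold change of 0.04 ± 0.16 (SE) with a 95% interval of -0.34 to 0.41. From 1 h Bic to the end of LP TTX, 5 of the 6 genes rose (7.19% of all genes called). Pim1 had the largest log2 fold change of the 6, 1.64 ± 0.15 (SE, adjusted p = 6.07e-11), followed by Csrnp1 at 0.98 ± 0.09 (SE, adjusted p = 5.89e-11) and Csrnp3 at 0.65 ± 0.07 (SE, adjusted p = 5.61e-09). Csrnp2 was higher by 0.27 ± 0.07 (SE, adjusted p = 0.00900), a call that was lost without preparation 7 (adjusted p = 0.0858). Pim3 was close to the threshold at 0.31 ± 0.10 (SE, adjusted p = 0.0485), and its call was lost without preparation 1 or 3 (adjusted p = 0.104 and 0.157) and with every other normalization, test and filter tried except the replicate block (adjusted p = 0.0116). Pim2 had a log2 fold change of 0.15 ± 0.07 (SE, adjusted p = 0.229) and passed with the replicate block (adjusted p = 0.0233).

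Adding NMDA to TTX gave different pictures for the 2 chosen genes in the SP, and lowered all 4 paralogs in the LP. For Csrnp1, SP TTX/NMDA libraries were at 6.00, 7.25, 5.41, 8.73 and 5.86 CPM, close to the control range of 5.57 to 7.30 CPM, and the change against SP TTX within preparations was -67.8% ± 6.84 (SD, n = 5). LP TTX/NMDA libraries were at 15.4, 18.9, 17.95, 18.99 and 14.2 CPM, a change of -60.8% ± 6.61 against LP TTX. For Pim1, SP TTX/NMDA libraries were at 2.65, 2.72, 2.49, 3.82 and 2.74 CPM, higher than SP TTX in 3 preparations and lower in 2, and LP TTX/NMDA libraries were at 4.82, 8.35, 7.66, 6.21 and 4.82 CPM, lower in 5 of 5. The LP changes of Pim1 spread widely, from -66.4% to -23.8%, and preparations 1 and 8 had the lowest levels. As a description, the log2 fold changes against TTX were -1.65 ± 0.11 (SE) for Csrnp1 and 0.11 ± 0.15 for Pim1 in the SP, and -1.38 ± 0.09 for Csrnp1 and -0.97 ± 0.14 for Pim1 in the LP. Without preparation 7, whose SP TTX/NMDA level was the highest, the SP value of Pim1 was -0.05.

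Among the paralogs, Csrnp3 showed the largest change with NMDA in the LP. Csrnp3 was at 103, 124, 128, 98.4 and 138 CPM after LP TTX/NMDA, and 4 of these 5 libraries stood below the lowest control library. No library overlapped the LP TTX group. Its level fell in 5 of 5 preparations by 51.7% ± 5.70 (SD), with a log2 fold change of -1.06 ± 0.08 (SE, adjusted p = 5.76e-11). Csrnp2 was at 46.3, 47.6, 46.1, 45.1 and 43.3 CPM, also below all LP TTX libraries, with a log2 fold change of -0.48 ± 0.07 (SE, adjusted p = 2.76e-06). Pim3 was at 62.6, 69.4, 68.1, 62.1 and 63.5 CPM and Pim2 at 45.7, 44.9, 49.3, 44.1 and 37.6 CPM. The groups of Pim3 with and without NMDA did not overlap, whereas those of Pim2 did. Their log2 fold changes were -0.32 ± 0.07 (SE, adjusted p = 0.00147) for Pim3 and -0.25 ± 0.08 (SE, adjusted p = 0.0151) for Pim2, and the call of Pim2 was lost without preparation 3 (adjusted p = 0.0508). All 4 paralogs were called, in a comparison in which 23.3% of all genes were called. Among genes kept by filterByExpr, 7826 of 16399 were called, so that a call here is common. In the SP, 2 of the 4 paralogs fell (4.28% of all genes called). Pim3, at 39.2, 39.8, 34.8, 43.99 and 44.1 CPM with NMDA and 50.4, 50.6, 57.2, 47.1 and 62.3 CPM without, had a log2 fold change of -0.42 ± 0.08 (SE, adjusted p = 9.63e-04). Csrnp3 had -0.28 ± 0.07 (SE, adjusted p = 0.00756), which was lost without preparation 7 (adjusted p = 0.0635). Csrnp2 and Pim2 had log2 fold changes of -0.05 ± 0.07 and -0.06 ± 0.07 (SE), with 95% intervals of -0.20 to 0.11 and -0.21 to 0.10.

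The LP TTX/NMDA libraries also differed in other measures. Of the astrocyte markers, 5 of 6 were higher and 1 was lower than in LP TTX, and their summed level was 1085 to 1917 CPM against 961 to 1442 CPM. Of the oligodendrocyte lineage markers 4 of 7 were higher (156 to 309 against 99.1 to 166 CPM), as were 4 of 4 fibroblast markers (85.7 to 205 against 65.6 to 142 CPM) and 2 of 6 microglial markers. Of the neuronal markers 4 of 9 were lower (7098 to 7767 against 8699 to 9686 CPM). Mitochondrially encoded genes took 1.40% to 1.87% of reads against 0.740% to 0.938%. In the SP the same share was 0.900% to 1.37% with NMDA and 0.665% to 1.02% without. There 1 of 9 neuronal markers was higher and 3 were lower with NMDA (summed level 7582 to 8305 against 7932 to 9030 CPM), 1 of 6 astrocyte markers was lower (877 to 1303 against 1007 to 1543 CPM), and none of the microglial, oligodendrocyte lineage, endothelial and fibroblast markers was called by edgeR. Whether these shifts had a part in the values of the Pim and Csrnp genes was not tested.

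**Figure D2:**
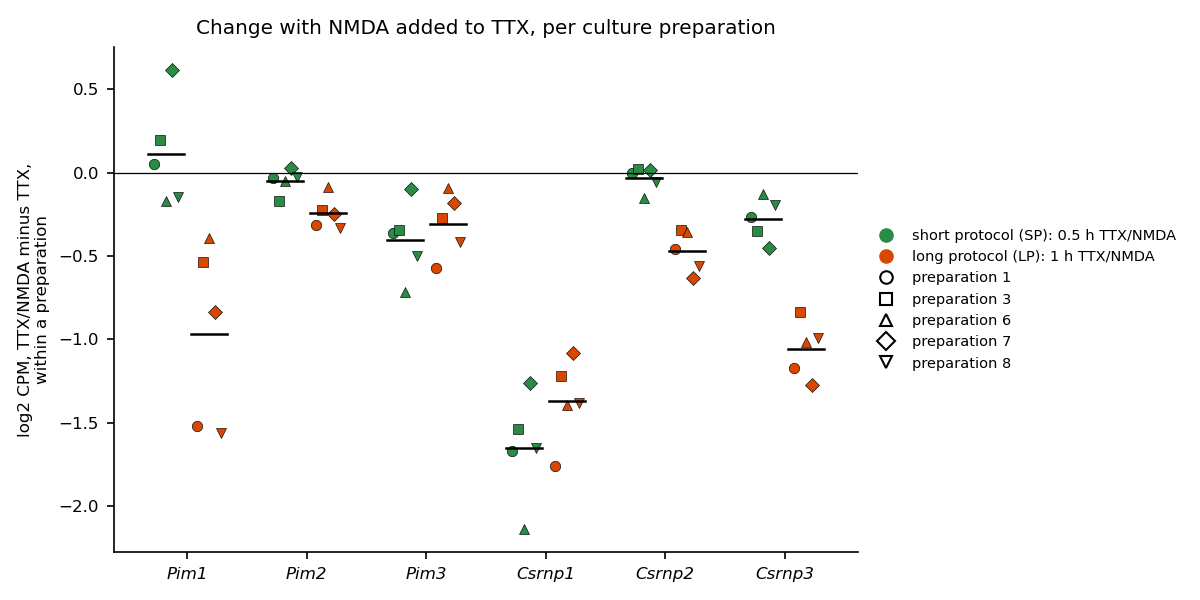
Change of log2 CPM between TTX/NMDA and TTX within each culture preparation, for the SP (green) and the LP (orange). Each symbol is 1 preparation and the black line is the mean of 5. Csrnp1 lies below 0 in all preparations of both protocols, Pim1 in all preparations of the LP and on both sides of 0 in the SP, and Csrnp3 lies lower in the LP than in the SP.

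The NMDA effect itself differed between the protocols for 2 of the 4 paralogs, where 2.57% of all genes were called. The log2 difference, LP minus SP, was -0.76 ± 0.11 (SE, adjusted p = 1.22e-05) for Csrnp3 and -0.42 ± 0.09 (SE, adjusted p = 0.00383) for Csrnp2, and the latter was lost without preparation 7 (adjusted p = 0.0505). For Pim2 it was -0.18 ± 0.10 (SE, adjusted p = 0.427), which passed with the replicate block (adjusted p = 0.0474), and for Pim3 it was 0.11 ± 0.11 with a 95% interval of -0.13 to 0.35. The corresponding untested values were -1.06 ± 0.21 (SE) for Pim1 and 0.28 ± 0.15 for Csrnp1.

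Against uninterrupted Bic, LP TTX/NMDA changed Pim1 by -76.97% ± 9.77 and Csrnp1 by -76.1% ± 2.48 (mean ± SD of the change within preparations, n = 5), and every preparation was lower for both. These changes ranged over -86.05% to -62.4% for Pim1 and -79.1% to -73.2% for Csrnp1. Relative to the mean of the controls, Pim1 was still 3.26 times as high in LP TTX/NMDA against 14.9 times after 2 h Bic, and Csrnp1 was 2.73 times as high against 11.5 times. In SP TTX/NMDA, Csrnp1 was at 1.06 times and Pim1 at 1.47 times the control mean. Of the 4 paralogs, 3 fell in the LP (22.8% of all genes called, and 7426 of 15947 genes kept by filterByExpr). The log2 fold changes were -0.79 ± 0.08 (SE, adjusted p = 1.07e-09) for Csrnp3, -0.55 ± 0.08 (SE, adjusted p = 9.13e-07) for Pim3 and -0.35 ± 0.07 (SE, adjusted p = 4.63e-04) for Pim2. Csrnp2 had a log2 fold change of -0.18 ± 0.07 (SE, adjusted p = 0.0690), which passed with the replicate block (adjusted p = 0.0297) and with DESeq2 (adjusted p = 0.0183), filterByExpr (adjusted p = 0.0486) and all 45 libraries in 1 fit (adjusted p = 0.0428). In the SP, 1 of the 4 was called (4.30% of all genes), Pim3 with -0.69 ± 0.10 (SE, adjusted p = 1.13e-05). Pim2 had -0.16 ± 0.07 (SE, adjusted p = 0.221) and Csrnp3 -0.20 ± 0.07 (SE, adjusted p = 0.119). With the replicate block 3 of the 4 were called, since Pim2 and Csrnp3 then passed (adjusted p = 0.0112 and 0.00392). Csrnp3 also passed without preparation 8 (adjusted p = 0.0167) and Pim2 with DESeq2 (adjusted p = 0.0220). This comparison shares its TTX/NMDA libraries with the comparison against TTX above.

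TBOA, added with Bic still present and without TTX, lowered Pim1 and Csrnp1. The 2 h Bic libraries again entered the comparison by which both were chosen. Pim1 was at 12.4, 12.7, 16.5, 15.3 and 19.4 CPM in LP TBOA and Csrnp1 at 37.6, 39.3, 47.3, 46.4 and 37.5 CPM, and no library overlapped the 2 h Bic group. The changes within preparations were -47.4% ± 7.93 and -41.8% ± 4.89 (SD, n = 5), with log2 fold changes of -0.93 ± 0.11 (SE, adjusted p = 1.79e-06) and -0.78 ± 0.07 (SE, adjusted p = 2.11e-08). Csrnp3 was at 178, 171, 152, 162 and 169 CPM, lower in 5 of 5 preparations, with a log2 fold change of -0.27 ± 0.06 (SE, adjusted p = 0.0201). This call of Csrnp3 was lost without preparation 1, 6 or 7 (adjusted p = 0.0831, 0.143 and 0.0528) and with all 45 libraries in 1 fit (adjusted p = 0.171). In all, 3 of the 6 genes were called, against 0.602% of all genes. Csrnp2, at 44.2, 41.2, 39.2, 46.5 and 40.6 CPM, did not overlap its 2 h Bic group and was lower in 5 of 5 preparations. Its log2 fold change was -0.26 ± 0.07 (SE, adjusted p = 0.0646), and it passed with the replicate block (adjusted p = 0.0103), with DESeq2 (adjusted p = 0.00883), with all 45 libraries in 1 fit (adjusted p = 0.0367) and without preparation 8 (adjusted p = 0.0210). Pim2 and Pim3 had -0.16 ± 0.06 and -0.20 ± 0.07 (SE), with 95% intervals of -0.30 to -0.02 and -0.36 to -0.03. Against the same 2 h Bic libraries, the log2 fold changes of Csrnp2 and Csrnp3 were above 0 with TTX and below 0 with TBOA.

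**Figure D3:**
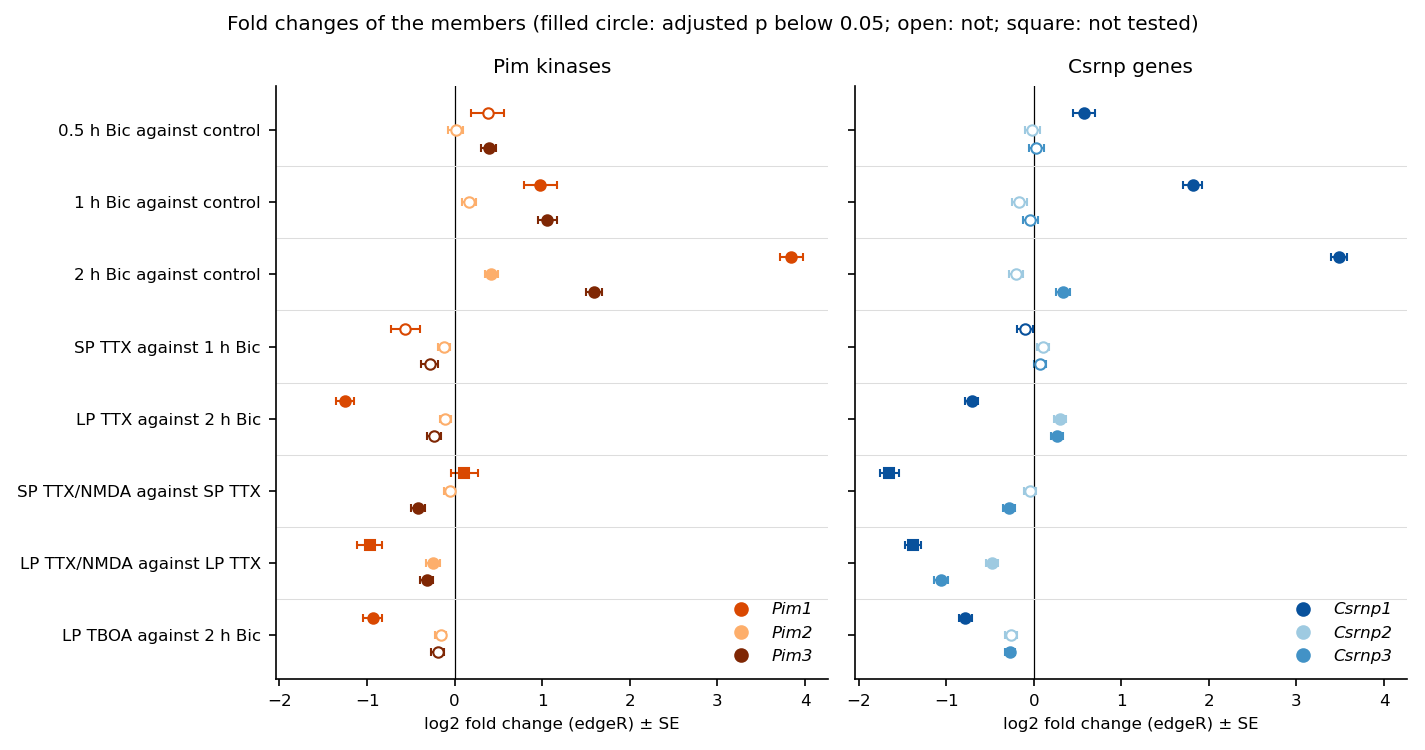
Log2 fold change (edgeR) with its SE for each gene in 8 comparisons, Pim kinases left and Csrnp genes right on the same axis. Filled circles have an adjusted p below 0.05, open circles do not, and squares are the untested values of Pim1 and Csrnp1 with TTX/NMDA. The rise with Bic reaches 3.85 for Pim1 and 3.49 for Csrnp1 at 2 h, and Csrnp3 is the paralog with the lowest value in LP TTX/NMDA.

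Within a library, the difference of log2 CPM between a gene and its paralog does not depend on the library size. Of 44 such differences tested between conditions by an exact two-sided permutation test (5 against 5 libraries, smallest possible p = 0.00794), 27 passed after adjustment over the 44. Without preparation 1, 3, 6 or 7, where 4 against 4 libraries allow no p below 0.0286 before adjustment, 0 of the 44 passed, and without preparation 8 there were 26. The 1 and 2 h Bic and TTX libraries entered the comparisons by which Pim1 and Csrnp1 were chosen, so that the ratios of these 2 genes are not independent of that choice. From control to 2 h Bic, the log2 ratio of Pim1 rose by 3.43 ± 0.35 (SD of the changes within preparations, n = 5) against Pim2 and by 2.26 ± 0.25 against Pim3. That of Csrnp1 rose by 3.70 ± 0.16 against Csrnp2 and by 3.15 ± 0.21 against Csrnp3. All 4 had an adjusted exact permutation p of 0.0159, the smallest reached. At 0.5 and 1 h Bic the ratio of Pim1 to Pim3 did not pass, with changes of 0.02 ± 0.31 and -0.07 ± 0.20 (adjusted exact p = 0.845 and 0.672). With LP TTX against 2 h Bic, the ratio of Pim1 to Pim3 fell by 1.01 ± 0.13 and that of Csrnp1 to Csrnp3 by 0.97 ± 0.24 (both adjusted exact p = 0.0159). With TBOA these ratios fell by 0.74 ± 0.19 and 0.50 ± 0.20 (both adjusted exact p = 0.0159). The ratio of Pim2 to Pim3 changed with Bic (-1.17 ± 0.24, adjusted exact p = 0.0159) and in the opposite direction with NMDA in the SP (0.36 ± 0.22, adjusted exact p = 0.0159). In the LP, NMDA raised the ratio of Csrnp2 to Csrnp3 by 0.59 ± 0.12 (adjusted exact p = 0.0159). As a description, NMDA changed the Csrnp1 to Csrnp3 ratio by -1.37 ± 0.44 (SP) and -0.31 ± 0.30 (LP). The Csrnp1 to Csrnp2 ratio changed by -1.62 ± 0.25 (SP) and -0.90 ± 0.31 (LP). The ratio of Pim1 to Pim3 was higher with NMDA in 5 of 5 preparations in the SP (0.51 ± 0.14) and lower in 5 of 5 in the LP (-0.66 ± 0.39).

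**Figure D4:**
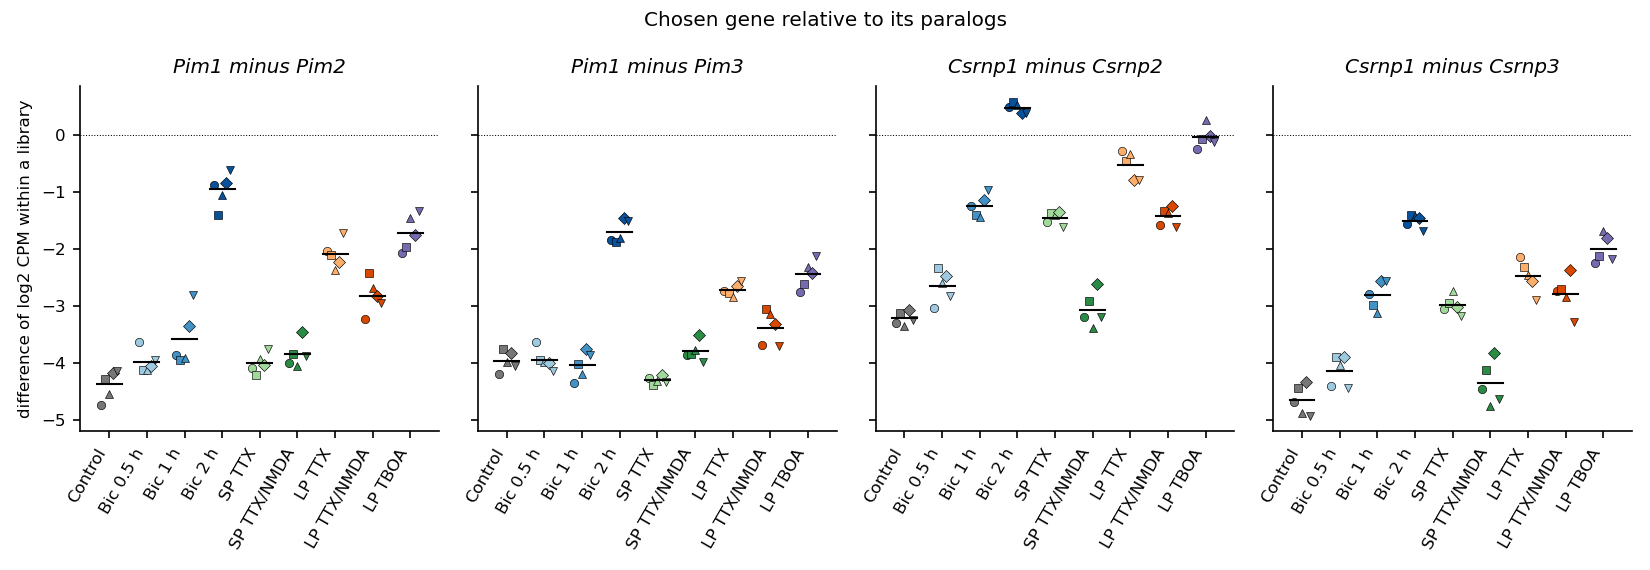
Difference of log2 CPM within a library between Pim1 or Csrnp1 and each paralog, by condition. Each symbol is 1 library, shapes are culture preparations and the black line is the mean of 5. The 2 h Bic group has the highest mean in all 4 panels, and the dotted line marks equal CPM of both genes, not corrected for length.

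Across the 9 conditions, the mean of Pim1 was highest after 2 h Bic, followed by LP TBOA, LP TTX, LP TTX/NMDA, 1 h Bic, SP TTX/NMDA, SP TTX, 0.5 h Bic and control. In this order the LP TBOA and LP TTX groups overlapped, as did each pair of neighbours from LP TTX/NMDA to 0.5 h Bic. For Csrnp1 the order was 2 h Bic, LP TTX, LP TBOA, 1 h Bic, SP TTX, LP TTX/NMDA, 0.5 h Bic, SP TTX/NMDA and control. LP TTX overlapped LP TBOA, SP TTX overlapped both 1 h Bic and LP TTX/NMDA, and SP TTX/NMDA overlapped both 0.5 h Bic and control. The other neighbours in this order did not overlap. Pim3 ranged from a mean of 31.2 ± 3.29 CPM (SD, n = 5) in control to 94.7 ± 12.3 CPM after 2 h Bic, with LP TBOA and LP TTX next at 81.97 ± 2.87 CPM and 80.9 ± 9.34 CPM, and these 3 groups overlapped. Pim2 kept its means between 41.5 ± 2.33 CPM in control and 55.9 ± 2.21 CPM after 2 h Bic. Csrnp2 was highest in LP TTX (63.4 ± 4.17 CPM) and lowest in LP TBOA (42.4 ± 2.96 CPM), which overlapped LP TTX/NMDA (45.7 ± 1.57 CPM). Csrnp3 was highest in LP TTX (245 ± 21.7 CPM), without overlap with 2 h Bic, and lowest in LP TTX/NMDA (118 ± 16.8 CPM), which overlapped SP TTX/NMDA (136 ± 10.6 CPM).

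As a description over the 45 libraries, with the mean of each preparation removed, log2 CPM of Pim1 and Csrnp1 correlated at 0.893 and that of Pim3 and Csrnp1 at 0.952. Within the Pim family the values were 0.902 for Pim1 and Pim3 and 0.882 for Pim1 and Pim2. Within the Csrnp family they were lower, at 0.573 for Csrnp1 and Csrnp3, 0.452 for Csrnp2 and Csrnp3 and -0.291 for Csrnp1 and Csrnp2. These points share their conditions and libraries. Among 13578 genes with a mean of at least 1 CPM, the 3 genes most like Pim1 by this measure were Lbh (r = 0.962, 0.986), Pex5 (r = 0.961, 0.987) and Rbm14 (r = 0.958, 0.987), where the value after the comma is the same correlation over the 9 condition means. Those most like Csrnp1 were Cfap43 (r = 0.989, 0.992), Irs2 (r = 0.982, 0.990) and Pcdh8 (r = 0.981, 0.989), of which Irs2 is an adaptor of the insulin receptor and Pcdh8 a protocadherin. Those most like Pim3 were Midn (r = 0.984, 0.995), Errfi1 (r = 0.977, 0.995) and Nfil3 (r = 0.975, 0.994), Errfi1 being an inhibitor of the EGF receptor and Nfil3 a transcriptional repressor. For Pim2 they were Grasp (r = 0.928, 0.985), Lrrc4 (r = 0.924, 0.982) and Preb (r = 0.924, 0.987). For Csrnp2 they were Dyrk3 (r = 0.911, 0.976), Sprtn (r = 0.891, 0.932) and Zfp263 (r = 0.884, 0.943), Dyrk3 being a protein kinase. For Csrnp3 they were Dennd4a (r = 0.974, 0.991), Slk (r = 0.968, 0.991) and Prkacb (r = 0.963, 0.993), Prkacb being a catalytic subunit of protein kinase A. Without removal of the preparation means, 9 of these 18 genes were no longer among the 3 most like, namely Lbh, Pex5, Grasp, Preb, Midn, Nfil3, Irs2, Zfp263 and Dennd4a.

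The list of the JAK-STAT pathway holds the cytokines, receptors, kinases, STAT proteins and inhibitors that lie upstream of Pim1. Of its 20 genes, 2 rose and 1 fell after 2 h Bic, beside 9.02% of all genes called. Among genes kept by filterByExpr, 2865 of 15269 were called there, 1712 of 15570 with LP TTX and 7826 of 16399 with NMDA in the LP. The cytokine gene Lif rose by 0.78 ± 0.20 (SE, adjusted p = 0.00921) and Stat3 by 0.54 ± 0.09 (adjusted p = 7.24e-05) on the log2 scale, and the STAT inhibitor Pias1 had -0.57 ± 0.08 (adjusted p = 1.18e-06). The median log2 fold change of the list was 0.13 against -0.01 over all genes. With LP TTX, 2 of 20 rose (4.65% of all genes called), the feedback inhibitor Socs1 by 1.28 ± 0.19 (adjusted p = 3.74e-05) and the kinase Jak2 by 0.31 ± 0.07 (adjusted p = 0.00353). With NMDA added in the LP, 4 rose and 3 fell (23.3% of all genes called). Lif had 1.38 ± 0.21 (adjusted p = 9.71e-06), the cytokine receptor gene Osmr 0.76 ± 0.22 (adjusted p = 0.00994) and Socs1 -1.24 ± 0.17 (adjusted p = 1.40e-06). Il6, at a mean of 0.109 CPM over all libraries, had 1.41 ± 0.45 (adjusted p = 0.0219). The rises with NMDA were in the comparison with the higher glial and fibroblast markers given above, and a link was not tested. The list medians were 0.02 with LP TTX and 0.07 with NMDA, against 0.01 and 0.11 over all genes and -0.0028 and -0.011 over genes with a mean of at least 1 CPM. With TBOA, 0 of the 20 genes were called (0.602% of all genes). The list median there was 0.024, against 0.017 over all genes and 0.0048 over genes with a mean of at least 1 CPM.

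Of 22 genes whose proteins are substrates of Pim kinases, 6 rose and 2 fell after 2 h Bic (9.02% of all genes called). With filterByExpr, 2865 of 15269 genes were called in this comparison. The transcription factor genes Myc and Nfatc1 rose by 1.00 ± 0.14 (SE, adjusted p = 1.54e-06) and 0.92 ± 0.16 (adjusted p = 4.90e-05) on the log2 scale. The inhibitors of cyclin-dependent kinases Cdkn1a and Cdkn1b rose by 0.84 ± 0.09 (adjusted p = 2.96e-09) and 0.71 ± 0.08 (adjusted p = 6.90e-09). With LP TTX (4.65% of all genes called) 2 rose, among them the chemokine receptor gene Cxcr4 (0.69 ± 0.09, adjusted p = 7.08e-06), and 3 fell, among them Myc (-0.67 ± 0.12, adjusted p = 3.33e-04) and Mycn (-0.58 ± 0.13, adjusted p = 0.00436). With NMDA added in the LP, 3 rose and 7 fell (23.3% of all genes called, and 7826 of 16399 genes kept by filterByExpr). The kinase gene Map3k5 had the lowest value, -0.88 ± 0.09 (adjusted p = 6.18e-09), followed by Cxcr4 with -0.73 ± 0.10 (adjusted p = 2.95e-06), while Mycn had 0.83 ± 0.12 (adjusted p = 3.76e-06). With TBOA, where 0.602% of all genes were called, Map3k5 was the list gene called (-0.34 ± 0.08, adjusted p = 0.0434). The list medians were 0.07 at 2 h Bic, -0.01 with LP TTX, -0.07 with NMDA and -0.02 with TBOA, against -0.01, 0.01, 0.11 and 0.02 over all genes and -0.0020, -0.0028, -0.011 and 0.0048 over genes with a mean of at least 1 CPM.

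Of 20 genes of the Axin and beta-catenin pathway, which holds the described inducer of Csrnp1, 2 rose and 1 fell after 2 h Bic (9.02% of all genes called). With filterByExpr, 2865 of 15269 genes were called there. The Wnt receptor gene Fzd1 rose by 0.70 ± 0.11 (SE, adjusted p = 8.28e-06) on the log2 scale, and the co-receptor gene Lrp6 had -0.41 ± 0.08 (adjusted p = 3.98e-04). With LP TTX (4.65% of all genes called) 1 rose, Axin2 (0.34 ± 0.09, adjusted p = 0.0187), a common readout gene of this pathway, and 1 fell, Fzd1 (-0.53 ± 0.11, adjusted p = 0.00196). With NMDA added in the LP, 5 rose and 7 fell (23.3% of all genes called, and 7826 of 16399 genes kept by filterByExpr). Axin2 had -0.41 ± 0.09 (adjusted p = 9.99e-04). The transcription factor genes Tcf7l2 and Tcf7l1 rose by 0.91 ± 0.20 (adjusted p = 7.21e-04) and 0.81 ± 0.20 (adjusted p = 0.00225), the co-receptor gene Lrp5 rose by 0.80 ± 0.18 (adjusted p = 0.00133), and the receptor gene Fzd3 had -0.65 ± 0.08 (adjusted p = 1.09e-07). These rises stood beside the higher glial and fibroblast markers given above. With TBOA (0.602% of all genes called), Axin2 was the list gene called (-0.40 ± 0.09, adjusted p = 0.0299), so that, against the same 2 h Bic libraries, it was above 0 with TTX and below 0 with TBOA. The list medians were 0.12 at 2 h Bic, -0.00352 with LP TTX, -0.07 with NMDA and -0.04 with TBOA, beside the medians over all genes and over genes with at least 1 CPM given for the Pim substrates.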

How the data were processed

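Poly(A) RNA of 45 cultures was sequenced as stranded single-end libraries. Per the labels and the study's methods, the authors demultiplexed reads with bcl2fastq 2.20.0.422, aligned them with STAR 2.5.4b to GRCm38 with Ensembl annotation, and deposited raw counts per gene from featureCounts 1.6.5, with strand and without multi-mapping reads or reads that overlap several genes. From these counts, comparisons were computed between pairs of conditions with edgeR 4.0.16 in R 4.3.3 (quasi-likelihood test, TMM normalization, genes with at least 1 read) and Benjamini-Hochberg adjustment over all genes tested, with calls at an adjusted p below 0.05. An interaction term tested LP against SP. Log2 CPM used a prior count of 2. The 95% intervals used a t distribution with 8 degrees of freedom, or 16 for the interaction term. The edgeR test used more degrees of freedom, so that an interval can be wider than its p implies. The alternatives were DESeq2 1.42.0, its size factors in edgeR, filterByExpr, which kept all 6 genes, all 45 libraries in 1 fit, the preparation as a replicate block together with filterByExpr, another prior count and leaving out each preparation. The fit was tested on simulated data.

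The replicate numbers are culture preparations per the labels, so they pair the samples. Deviations from the condition means correlated at a mean of 0.434 (lowest -0.293) for the same number, over 13592 genes. The mean of -0.107 for different numbers follows from the removal of the condition means and is not a separate observation. Blocked values are given where they change a call. The edgeR p-values of the main fits measure the spread between the 5 libraries of a condition, without the pairing by preparation. The exact permutation tests left out the pairing as well. The 6 genes, the pathway and marker lists and the tests were chosen with earlier results of these data known. Named genes were the 6 genes, the 3 most like each, and from each pathway list the called genes of largest change. Axin2 with NMDA in the LP was an exception, named as a readout gene although called genes not named there, such as Gsk3b, changed more. Paralog ratios were tested by exact permutation over 44 tests. Gene models came from GENCODE vM21 and promoters from RefSeq.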

Additional observations from a re-analysis of the deposited data

Results flagged for a closer look

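In the SP TTX/NMDA group, the level of Pim1 in preparation 7 was 3.82 CPM, far above the other 4 libraries at 2.49 to 2.74 CPM (Dixon's ratio of the gap to the range 0.81, critical value 0.71). Of 54 groups of 5 libraries checked, this was the 1 that stood out, and chance gives about 1 in 20. The TTX effect on Csrnp1 differed between the LP and the SP by -0.61 on the log2 scale (interaction term of edgeR). The NMDA effect differed between the LP and the SP by -0.76 for Csrnp3 and by -0.42 for Csrnp2 on the log2 scale by the same test.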

How the results depend on the processing

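Of the 6 genes' values called by edgeR, 415 alternatives kept direction and call, 25 lost the call and none changed sign. At 0.5 h Bic, 1 gene was called with filterByExpr and 1 with all 45 libraries in 1 fit, against 2, and 0 to 2 without 1 preparation. For SP TTX against 0.5 h Bic both settings also gave 1, against 2. Without 1 preparation, 0 to 1 gene was called for SP TTX against 1 h Bic, 0 to 2 for the difference of the TTX effect, 1 to 2 paralogs for SP TTX/NMDA against SP TTX and for the difference of the NMDA effect, and 1 to 2 for SP TTX/NMDA against 1 h Bic, where DESeq2 called 2. With the replicate block, 3 paralogs were called for SP TTX/NMDA against 1 h Bic and 2 genes for the difference of the TTX effect. DESeq2 called 4 paralogs for LP TTX/NMDA against 2 h Bic, against 3, and 4 genes for LP TBOA, against 3. Of 86 values tested, the block changed the call of 10, given with the results, and no other. Over all genes the block, fitted with filterByExpr, raised the calls most for the difference of the NMDA effect (900 to 4165), the difference of the TTX effect (88 to 323), LP TTX against 2 h Bic (1485 to 4978) and SP TTX/NMDA against 1 h Bic (1351 to 4217). It did so by over 1.5 times also at 1 h Bic (357 to 618), 2 h Bic (2789 to 4479), from 1 to 2 h Bic (1652 to 3607), for LP TTX against 1 h Bic (2292 to 4527), SP TTX/NMDA against SP TTX (1379 to 2548) and LP TBOA (191 to 417). Over all genes, DESeq2 called 2320 for LP TTX against 2 h Bic, 315 for LP TBOA, 183 for the difference of the TTX effect and 1660 for that of the NMDA effect. FilterByExpr called 35, 104 and 52 for SP TTX against 1 h Bic (85), LP TBOA and SP TTX against 0.5 h Bic (99), and all 45 libraries in 1 fit called 48 and 95 for the first and second of these. Without 1 preparation the calls were 39 at the lowest for the difference of the TTX effect, 123 to 493 for LP TBOA, 801 to 2068 for SP TTX/NMDA against 1 h Bic, and at the lowest 909 for LP TTX against 2 h Bic, 918 for SP TTX/NMDA against SP TTX and 489 for the difference of the NMDA effect. For SP TTX against 1 h Bic they were 52 to 163. The causes were not tested. Of the paralog ratios, 27 passed, 0 passed with a sign-flip replicate block, whose smallest p of 0.0625 cannot pass, and 0 to 26 without 1 preparation, where 4 against 4 libraries allow 0.0286 before adjustment.

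Signs changed for 22 values, none of them called. Leaving out 1 preparation gave log2 fold changes of -0.0392 to 0.0170 for Csrnp2 and -0.0370 to 0.0758 for Csrnp3 at 0.5 h Bic, and -0.103 to 0.0108 for Csrnp3 at 1 h Bic. For SP TTX against 0.5 h Bic it gave -0.0399 to 0.109 for Pim1 and -0.0315 to 0.0308 for Csrnp3, which was -0.00922 with DESeq2 size factors, -0.00923 with DESeq2, -0.00426 with filterByExpr and -0.00259 with the replicate block. For the difference of the TTX effect it gave -0.0335 to 0.0401 for Pim2 and -0.0268 to 0.158 for Pim3, and for that of the NMDA effect -0.0189 to 0.185 for Pim3. Among ratios it gave -0.113 to 0.0760 for Pim1 to Pim3 at 0.5 h Bic, -0.0424 to 0.0703 for Pim2 to Pim3 with TBOA, and for Csrnp2 to Csrnp3 -0.0564 to 0.0921 in SP TTX, -0.00514 to 0.0900 in LP TTX and -0.00421 to 0.0267 with TBOA. Depth limits Pim1 in control and 0.5 h Bic most, at 18 to 116 reads per library.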
